A study of Capra hircus with 2 samples.

Results

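miR-146a, miR-146b and miR-155 are short regulatory RNAs known in human and mouse cells to respond to NF-kB, a transcription factor of the inflammatory response. They were followed in small RNA libraries from the mammary gland of dairy goats. Early involution, the stage in which the gland regresses after milk removal ends, was sampled on day 5 after forced weaning in late lactation, 218 days after parturition. Early lactation was sampled on day 10 after parturition. Each stage was 1 library made from a pool of 5 goats, so no difference between stages could be tested, and the animals within a pool could not be told apart. Weaning and time since parturition also differed together and cannot be told apart. In whole tissue, fewer cells of a type and less RNA per cell cannot be told apart either.

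The members were chosen by sequence. A tag (a distinct read sequence with its read count) was given to a miRNA when it started with base 1 of the mature form, or up to 2 bases after that, matched it without mismatch, and ran at most 3 bases past its end. Tags were found for 4 of the 6 arms of the 3 miRNAs. They comprised 89 distinct tags in early involution and 118 in early lactation, out of 504338 distinct tags in both files. The same rule was applied to 536 reference tags in all, of which 47 carried a miRNA name here. The involution library held 7385833 clean tags and the lactation library 18031615, which is 2.44 times as many. Reference tags took up 80.2% of them in involution and 83.2% in lactation. The unit of level is TPM, the number of tags in 1000000 clean tags, and a count of 0 allows a level of up to 0.406 TPM in involution and 0.166 TPM in lactation. All intervals are exact 95% intervals and, like these limits, cover counting error only, because PCR copies were not marked.

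A miRNA is cut from a hairpin whose 5p and 3p arms can each be loaded into an Argonaute protein, and bases 2 to 8, the seed, pair with target mRNAs. In human and mouse cells miR-146a is transcribed in response to NF-kB and lowers IRAK1 and TRAF6, adaptors that carry signals from Toll-like and interleukin-1 receptors towards NF-kB. miR-146b comes from a gene of its own, shares that seed, and is also responsive to STAT3, a transcription factor that drives involution in the mouse mammary gland. miR-155 is cut from the BIC transcript, is abundant in activated lymphocytes and macrophages, and lowers SOCS1 and INPP5D, inhibitors of cytokine signalling.

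The mature forms were read from the deposited tags, written with T for U, as the most abundant tag of each arm. The conserved miR-146a was instead derived from miR-146b by its known base differences, and that sequence had 2 reads in each library. These sequences are shown because the family is separated by very few bases. Capitals mark the seed.
miR-146b-5p: tGAGAACTgaattccataggctgt
miR-146a-5p, conserved mammalian form: tGAGAACTgaattccatgggtt
miR-155-5p: tTAATGCTaatcgtgatagggg
miR-146b-3p: tGCCCTAGggactcagttctggt

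The miR-146 guide arms (5p) had the same seed, and no other reference tag shared the miR-155 seed. Over their first 22 bases the conserved miR-146a and miR-146b were identical at 20 bases and differed at 2. miR-155 and miR-146b were identical at 10 of 22 bases, so their tags could not be confused. In the goat gene table of RefSeq (assembly ARS1.2), MIR146A lies between ATP10B and PTTG1, MIR146B between MFSD13A and CUEDC2, and MIR155 next to MRPL39, none of them inside another gene.

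miR-146b-5p was the dominant member and, per clean tag, stood at nearly the same level in both stages; with edgeR's TMM factors or with median-of-ratios factors its log2 ratio was -0.72 or -0.70, lower in involution. It had 130839 tags in early involution and 331569 in early lactation. These counts correspond to 17714.9 TPM (17619 to 17811.1) in involution and 18388.2 TPM (18325.7 to 18450.9) in lactation. It ranked 9th among the reference tags in both libraries. The involution to lactation ratio was 0.963 (0.957 to 0.970), or -0.05 on the log2 scale. The counting intervals did not overlap, but a gap of this size cannot be read against the spread between goats, which the pools do not show.

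miR-155-5p was lower in involution. It had 4789 tags in involution and 20776 in lactation, which gives 648 TPM (630 to 667) in involution and 1152 TPM (1137 to 1168) in lactation. The level was 1.78-fold lower (1.72 to 1.83) in involution, with a log2 ratio of -0.83. That is short of the 2-fold size used here to call a difference, which also asked for a counting interval wholly on 1 side of equality and at least 10 TPM in a library. Its rank was 71 in involution and 39 in lactation. For each miR-155 tag there were 27.3 miR-146b-5p tags in involution and 15.96 in lactation.

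The conserved form of miR-146a was close to the detection limit in both libraries. It had 4 tags in involution and 5 in lactation, or 0.542 TPM (0.148 to 1.39) in involution and 0.277 TPM (0.0900 to 0.647) in lactation. These levels were under the filter of 10 TPM, and the ratio of 1.95 had an interval of 0.388 to 9.07, so its direction was not detectable at this depth. Of the tags that told the conserved miR-146a from miR-146b, it made up 0.00306% (0.000833 to 0.00783) in involution and 0.00151% (0.000490 to 0.00352) in lactation.

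**Figure D1:**
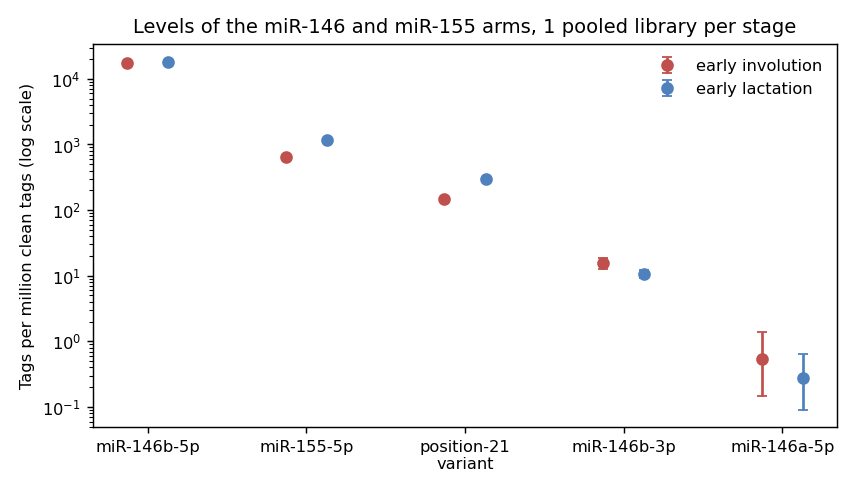
Levels of each arm with tags and of the position-21 variant in TPM (log scale), early involution left of early lactation, 1 pooled library each; bars are exact 95% Poisson intervals. miR-146b-5p stands at 17714.9 in involution and 18388.2 in lactation, miR-155-5p at 648 in involution and 1152 in lactation, the position-21 variant at 147 in involution and 303 in lactation, and the conserved miR-146a below 1 in both.

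A second miR-146 sequence was far more frequent than the conserved miR-146a. It followed miR-146b up to base 20 and carried T at position 21, where the conserved miR-146a also has T. It kept the A at position 18 that separates miR-146b from the conserved miR-146a. This form, called the position-21 variant below, was singled out after its values were seen. It is given no gene name, because no goat mature miRNA table was used here. Whether it is the goat's own miR-146a was not tested, so the level given above for the conserved sequence may not be the level of the goat miRNA, and the values of this form would then be those of miR-146a. The first 22 bases of these forms are shown with positions 18 and 21 in capitals, counted from the first base.
miR-146b-5p: tgagaactgaattccatAggCt
position-21 variant: tgagaactgaattccatAggTt
miR-146a-5p, conserved mammalian form: tgagaactgaattccatGggTt

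The variant differed at 1 of 22 bases from miR-146b (C21T) and at 1 of 22 from the conserved miR-146a. It had 1083 tags in involution and 5468 in lactation. Its level was 147 TPM (138 to 156) in involution and 303 TPM (295 to 311) in lactation, which is 2.07-fold lower (1.94 to 2.21) in involution, with a log2 ratio of -1.05. It passed the 2-fold size, which none of the member arms did when all their tags were counted, and 4.77% of all 524 reference tags tested did so in the same direction (25 tags, against 99 with TMM and 98 with median-of-ratios factors). Among the 137 reference tags with at least 1000 tags in both libraries, as the variant had, 4.38% were called lower and 32.8% higher in involution. It lay close to that size: the log2 ratio was -0.97, and no longer called, when tags that fit both miR-146b and the variant were split between them, and -0.996 when libraries were scaled to their assigned tags. Restricted to tags of 22 nt or longer, it had 93.3 TPM in involution and 209 TPM in lactation, 2.24-fold lower (2.06 to 2.43) in involution.

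Within the miR-146 tags, where scaling between libraries plays no part, the variant made up 0.822% (0.774 to 0.873) in involution and 1.63% (1.58 to 1.67) in lactation. There were 120.6 miR-146b tags per variant tag in involution and 60.5 in lactation. Tags too short to reach position 21 fitted both sequences and were set aside, 249 in involution and 625 in lactation.

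The variant was more frequent than the other single-base differences of 22 nt tags. Each share here is of the exact tags of that length plus those with that substitution, leaving out the other substitutions. Among 22 nt tags so counted, C21T stood in 3.54% (3.27 to 3.82) in involution and 9.16% (8.88 to 9.45) in lactation. The other 62 substitutions before the last base of such tags had a median of 0.0180% in involution and 0.0167% in lactation. The highest of those was A11C, at 0.293% in involution and 0.315% in lactation. Changes of the last base itself, which are also counted as tails below, were more frequent: T22A stood in 2.28% (2.06 to 2.52) in involution and 3.01% (2.84 to 3.19) in lactation. C-to-T changes at the 3 other C bases reached 0.0660% in involution and 0.103% in lactation. The difference was bound to short tags: at 24 nt, C21T stood in 0.0176% in involution (12 tags) and 0.0179% in lactation (30 tags), within the range of the other substitutions before the last base.

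**Figure D2:**
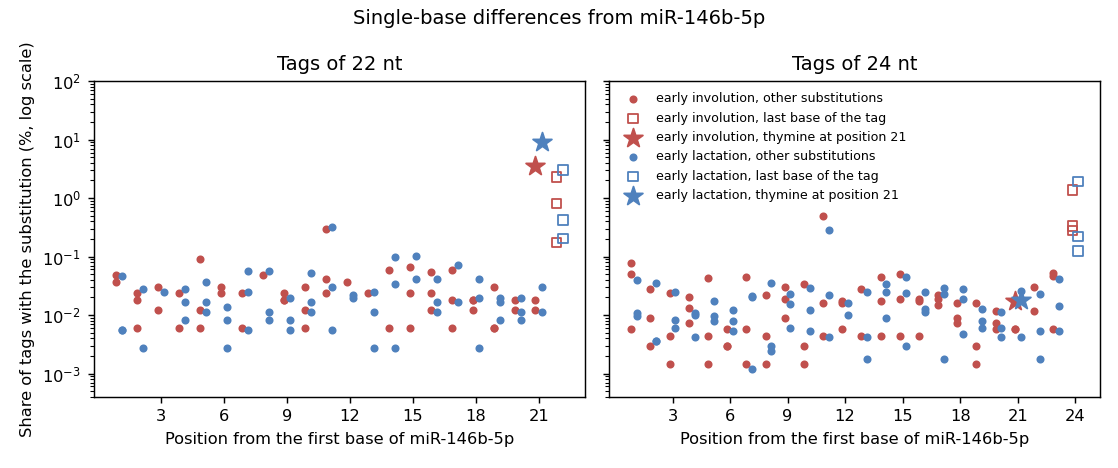
Share of tags (%, log scale) that carry each single-base substitution of miR-146b-5p, by position from its first base, for tags of 22 nt (left) and 24 nt (right). Each share is of the exact tags of that length plus those with that substitution. Red is early involution, blue is early lactation, open squares are changes of the last base of the tag, and substitutions seen in no tag are left out. At 22 nt thymine at position 21 reaches 3.54% in involution and 9.16% in lactation, above the next highest, T22A at the last base (2.28% in involution and 3.01% in lactation), and at 24 nt it lies among the changes before the last base.

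The base in front of the mature sequence also separated both forms. Hairpins are cut with little error at the 5′ end, and a tag that begins 1 base early can show the base that precedes the mature form in its precursor. In human genes that base is U for miR-146a and C for miR-146b. The most frequent early tags are shown with that base and position 21 in capitals.
early tag with T in front: TtgagaactgaattccataggT
early tag with T in front, 1 base longer: TtgagaactgaattccataggTt
early tag with C in front: CtgagaactgaattccataggCtgt

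Of 90 early tags with T in front in involution, 88.9% (80.5 to 94.5) carried T at position 21. In lactation it was 97.9% (96.0 to 99.0) of 425. Of those with C in front, T at position 21 stood in 0.541% (0.0137 to 2.97) of 185 in involution and 0.435% (0.0527 to 1.56) of 460 in lactation. The pairing of T with T and of C with C therefore held in both libraries. Tags with A in front, 77 in involution and 0 in lactation, belong to neither pair. Whether each early base comes from the precursor was not tested.

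Early starts were more common for the T form. Among tags with T at position 21 that began at the first base or 1 base before it with T in front, 6.73% (5.37 to 8.30) began early in involution and 7.0% (6.36 to 7.67) in lactation. Among tags with C at position 21, early starts with C in front made up 0.138% (0.119 to 0.159) in involution and 0.135% (0.123 to 0.148) in lactation. With any base in front, the share for the C form was 0.196% (0.173 to 0.222) in involution and 0.137% (0.125 to 0.15) in lactation, since 72 of its early tags in involution and 0 in lactation had A in front. The T form stood above the C form in both stages on either count.

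Tag length was the next property in which the members differed from each other. In miR-146b-5p, tags of 24 nt led with 52.4% in involution and 50.6% in lactation, followed by 23 nt with 27.8% in involution and 31.9% in lactation. Its mean length was 23.29 nt in both stages. The variant was shorter: 56.8% of its tags in involution and 66.6% in lactation had 22 nt, and 35.9% in involution and 31.0% in lactation had 21 nt. miR-155-5p lay between them, and its lengths differed between stages, with 39.6% of tags at 22 nt in involution and 52.9% in lactation. At 23 nt it had 30.8% in involution and 23.1% in lactation, and at 24 nt 7.37% in involution and 3.61% in lactation.

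**Figure D3:**
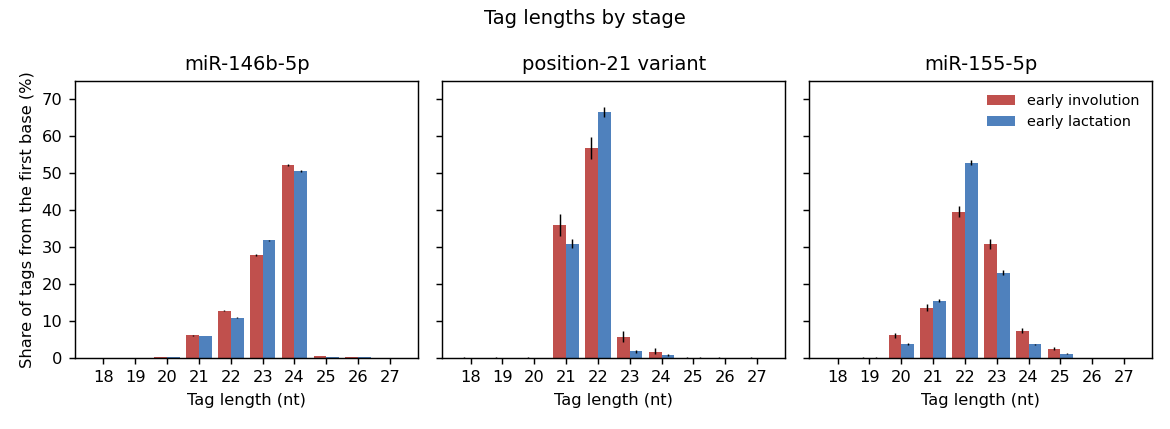
Share of the tags that start at the first base by tag length (nt), for miR-146b-5p, the position-21 variant and miR-155-5p; early involution is red and left, early lactation blue and right, and bars are exact 95% binomial intervals. miR-146b-5p peaks at 24 nt and the variant at 22 nt in both stages, while miR-155-5p at 22 nt falls to 39.6% in involution, against 52.9% in lactation.

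The miR-155 tags were extended at their 3′ end more often in involution. Tags longer than the 22 nt form made up 40.7% (39.3 to 42.1) in involution and 27.7% (27.1 to 28.4) in lactation. Identical tags made up 39.5% (38.1 to 40.9) in involution and 52.7% (52.1 to 53.4) in lactation. Shorter tags did not separate the stages, with 19.6% (18.5 to 20.8) in involution and 19.4% (18.8 to 19.9) in lactation. Among the 137 reference tags with at least 1000 tags in both libraries, the share of longer tags was higher in involution for 72 and lower for 65. The median difference (involution minus lactation) was 0.18 percentage points, against 13.0 for miR-155, and 12 reference tags had a larger one.

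The ratio between stages differed among the forms of miR-155. The 22 nt form and its 3 most abundant extended forms are shown, with bases beyond the 22 nt form in capitals. In the labels, added means lying beyond the 22 nt form, whether copied from the hairpin or put on later.
miR-155, 22 nt: ttaatgctaatcgtgatagggg
miR-155, 1 A added: ttaatgctaatcgtgataggggA
miR-155, 1 T added: ttaatgctaatcgtgataggggT
miR-155, 2 T added: ttaatgctaatcgtgataggggTT

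The 22 nt form had 1893 tags in involution and 10959 in lactation, or 256 TPM in involution and 608 TPM in lactation, a ratio of 0.422 (0.401 to 0.443). The 21 nt form, which lacks the last base, had 646 tags in involution and 3209 in lactation, a ratio of 0.491 (0.451 to 0.535). The 20 nt form had 290 tags in involution and 789 in lactation, a ratio of 0.897 (0.782 to 1.03). Shortened forms thus did not all have the ratio of the 22 nt form. The form with 1 A had 671 tags in involution and 2609 in lactation, a ratio of 0.628 (0.576 to 0.684). The form with 1 T had 792 tags in involution and 2147 in lactation, a ratio of 0.901 (0.829 to 0.978). In the form with 2 T the direction was the other way, with 274 tags in involution and 478 in lactation and a ratio of 1.40 (1.20 to 1.63). Among these 6 forms the 22 nt form was lowest in involution relative to lactation, and per clean tag the form with 2 T was higher in involution. TMM and median-of-ratios factors moved every log2 ratio by -0.66 and -0.64. With either, the value of the form with 2 T turned to lower in involution, but its counting interval then spanned equality. Counting identical tags alone, miR-155 passed the 2-fold size at -1.25 on the log2 scale, and counting none longer than 22 nt it did so at -1.11.

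Bases added to miRNAs after cutting are mostly A and U, put on by terminal nucleotidyltransferases. A template base cannot be told from an added base here, because no goat hairpin sequence was used. When a last base after any exact stretch of miR-155 was counted as a tail if it departed from the mature form or followed its end, 34.8% (33.5 to 36.1) of miR-155 tags had one in involution and 25.96% (25.4 to 26.5) in lactation. A was the tail in 18.6% (17.6 to 19.7) in involution and 15.7% (15.3 to 16.2) in lactation. T was the tail in 15.9% (14.9 to 17.0) in involution and 10.03% (9.63 to 10.4) in lactation. C and G stayed under 0.2% in both stages.

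Tails depended on where the tag ended. Each share here is of the tags with that base after the stretch plus those that end there, leaving out the other bases. The shares of A and T therefore do not add up. After the full 22 bases, T followed in 29.5% (27.8 to 31.3) in involution and 16.4% (15.8 to 17.0) in lactation, and A in 26.2% (24.5 to 27.9) in involution and 19.2% (18.6 to 19.9) in lactation. After 21 bases A was still frequent, at 28.5% (25.6 to 31.6) in involution and 19.1% (17.9 to 20.4) in lactation. T after 21 bases was rare, at 2.27% (1.28 to 3.72) in involution and 0.527% (0.307 to 0.842) in lactation. The T that follows base 22 was thus much more frequent than a T after base 21, and A did not have that difference.

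miR-146b-5p had few tails. They stood in 2.50% (2.42 to 2.58) of its tags in involution and 2.31% (2.26 to 2.36) in lactation. Tags of 21 nt that end in T were left out of these counts, because they fit the variant (386 in involution and 1689 in lactation). A tails alone were not higher in involution, with 1.57% (1.51 to 1.64) in involution and 1.72% (1.68 to 1.77) in lactation. T tails were, with 0.452% (0.416 to 0.489) in involution and 0.326% (0.307 to 0.345) in lactation. The tags left out outnumber these T tails in lactation (1102) but not in involution (603). The direction of T tails therefore rests on leaving those tags out. Its end was trimmed rather than extended: 46.8% in involution and 48.9% in lactation were shorter than the 24 nt form, and 0.812% in involution and 0.536% in lactation were longer. The variant had longer tags in 7.20% (5.73 to 8.91) in involution and 2.43% (2.04 to 2.88) in lactation.

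**Figure D4:**
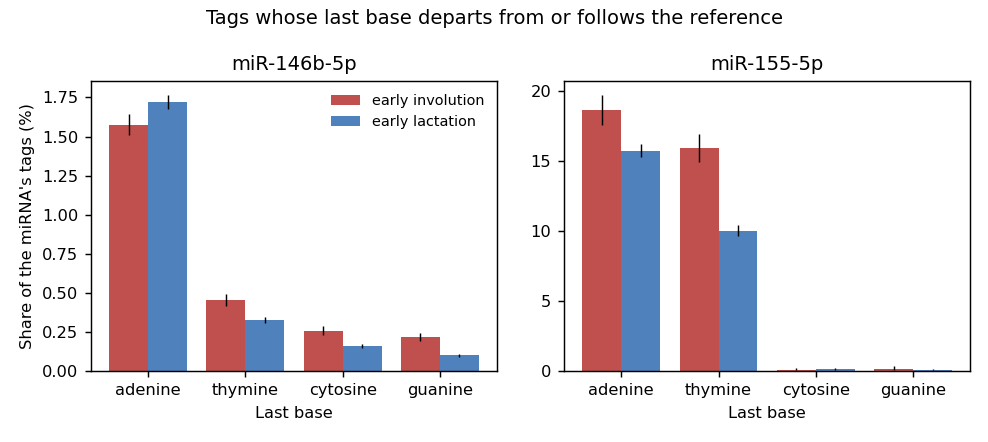
Share of tags (%) whose last base departs from or follows the mature form, by that base, for miR-146b-5p (left) and miR-155-5p (right), on axes of different range; early involution is red and left, early lactation blue and right, with exact 95% binomial intervals. For miR-155 both adenine and thymine tails are more frequent in involution. For miR-146b, with 21 nt tags that end in thymine left out, adenine is lower in involution and thymine higher.

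The 5′ end, which sets the seed, was kept in the guide arms. Only 0.206% of miR-146b-5p tags in involution and 0.233% in lactation lacked the first base, and for miR-155 it was 0.167% in involution and 0.255% in lactation. The passenger arm miR-146b-3p was less exact, with 16.7% (10.3 to 24.8) in involution and 16.8% (11.8 to 22.8) in lactation lacking 1 base. A missing first base moves the seed by 1 position.

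Among the passenger arms, tags were found for miR-146b-3p only. It had 114 tags in involution and 191 in lactation, which is 15.4 TPM (12.7 to 18.5) in involution and 10.6 TPM (9.14 to 12.2) in lactation, a ratio of 1.46 (1.15 to 1.85). Its share of all miR-146b tags was 0.0871% (0.0718 to 0.105) in involution and 0.0576% (0.0497 to 0.0663) in lactation. There were 1148 guide tags per passenger tag in involution and 1736 in lactation. No tag that began with the 9-base start of miR-146a-3p or miR-155-3p was found in either library. Tags that lack a first base, or goat forms that differ within those 9 bases, would be missed by that search.

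Most of the called reference tags were higher in involution. Of 524 tested, 216 (41.2%) were at least 2-fold higher in involution and 25 (4.77%) at least 2-fold lower, against 142 higher and 99 lower with TMM and 144 higher and 98 lower with median-of-ratios factors. Their median log2 ratio was 0.65. No member arm past the level filter passed the 2-fold size upwards. When the libraries were scaled with edgeR's TMM factors, which moved every log2 ratio by -0.66, miR-155 passed it downwards at -1.49 and miR-146b-5p stood at -0.72. The value of miR-146b-3p then changed sign to -0.12 (-0.47 to 0.22), with an interval that spans equality. Neither scaling can be checked against an amount of RNA measured apart from these libraries.

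**Figure D5:**
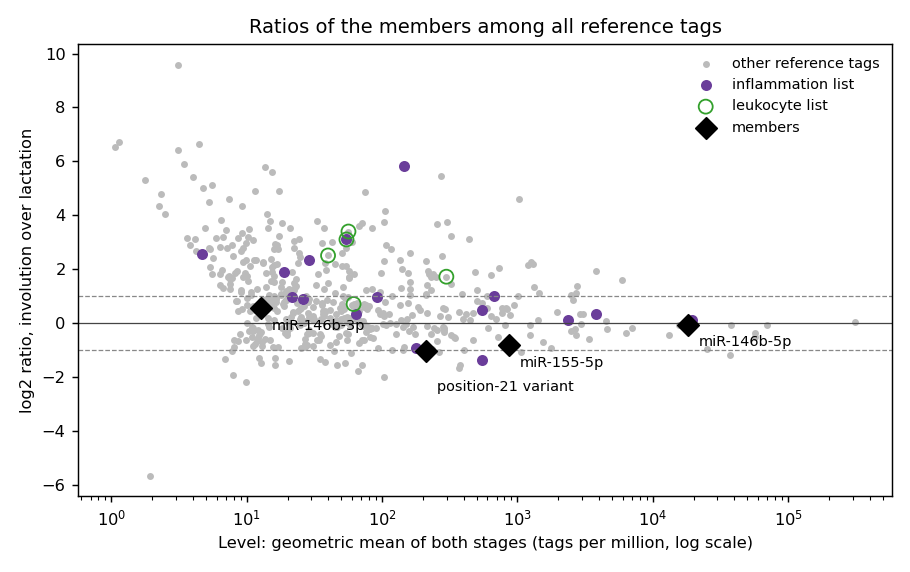
log2 ratio of early involution over early lactation against level (geometric mean of both stages, in TPM, log scale) for the reference tags tested that had tags in both libraries; dashed lines mark a 2-fold difference. miR-146b-5p lies near 0, miR-155-5p and the position-21 variant near -1 on the side of lower in involution, and 4 of the 5 leukocyte miRNAs lie above 1.

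Other miRNAs linked to inflammation or NF-kB, 18 in all, were listed for comparison. Of 15 tested, 5 were at least 2-fold higher in involution, 1 was at least 2-fold lower and 9 lay between. Several lay close to that size: with libraries scaled to their assigned tags 8 of 15 were higher and 1 lower, and with TMM 4 of 14 were higher and 2 lower. Over all 524 reference tags tested 41.2% were higher and 4.77% lower, and with TMM 142 of the reference tags were higher and 99 lower. Over the named miRNAs, which include the list itself, 38.1% were higher and 2.38% lower. The median log2 ratio of the list was 0.97, against 0.65 over all reference tags tested and 0.63 over the 42 named miRNAs tested. The other 3 (miR-132, miR-147 and miR-212) were under 10 TPM in both libraries.

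Its 3 most abundant members differed little between stages, and with TMM they turned to lower in involution. miR-21, induced by STAT3 and NF-kB in human cells, had 20262.6 TPM in involution and 18633.5 TPM in lactation, a ratio of 1.09. miR-16, a brake on the cell cycle, had 4293 TPM in involution and 3425 TPM in lactation, a ratio of 1.25. let-7i, which targets TLR4 in human cells, had 2474 TPM in involution and 2265 TPM in lactation, a ratio of 1.09. miR-29b, which lowers collagen mRNAs, had 1094 TPM in involution and 19.2 TPM in lactation, a ratio of 56.9 (51.1 to 63.5). miR-223, a miRNA of neutrophils and macrophages, had 160 TPM in involution and 18.6 TPM in lactation, a ratio of 8.6 (7.61 to 9.74). miR-125b had 951 TPM in involution and 476 TPM in lactation, a ratio of 1.996, just under the 2-fold size. miR-10a was the 1 member at least 2-fold lower in involution, with 340 TPM in involution and 887 TPM in lactation. It is named here after its values were seen. In lactation miR-10a ranked 41 and miR-125b 63 among the reference tags, above miR-29b at 317. Abundance over both libraries therefore does not by itself pick miR-29b or miR-223.

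Of 5 leukocyte miRNAs, all with tags in both libraries, 4 were at least 2-fold higher in involution, where 41.2% of all reference tags and 38.1% of the named miRNAs were. Their median log2 ratio was 2.51. Their summed level was 1058 TPM in involution and 265 TPM in lactation. miR-142-3p, found across blood cells, had 542 TPM in involution and 164 TPM in lactation. The other arm, miR-142-5p, was not 2-fold higher, with 78.7 TPM in involution and 48.1 TPM in lactation, a ratio of 1.63 (1.47 to 1.82). miR-342-3p had 183 TPM in involution and 17.4 TPM in lactation. miR-150, of mature lymphocytes, had 95.0 TPM in involution and 16.7 TPM in lactation. The part of leukocytes in the levels of miR-146 and miR-155 was not tested.

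The other lists describe the tissue. All 10 epithelial miRNAs had tags in both stages, with summed levels of 26247.5 TPM in involution and 21449.6 TPM in lactation and a median log2 ratio of -0.03. At least 2-fold higher in involution were 3 of them and lower none, against 2 higher and 5 lower with TMM. The share over all reference tags was 41.2% higher and 4.77% lower, so 3 of 10 is not above it. With TMM, 142 reference tags were higher and 99 lower, so the TMM counts of a list cannot be set beside those shares. miR-200c, which keeps the epithelial state by lowering ZEB1 and ZEB2, led the list with 11254.9 TPM in involution and 15211.6 TPM in lactation. miR-375 had 5039 TPM in involution and 208 TPM in lactation. Of 5 stromal miRNAs 2 were at least 2-fold higher, with a median of 0.47 (-0.19 with TMM, so that the direction turned). Of 2 endothelial arms, both of miR-126, 1 was higher, and with TMM 1 was higher and 1 lower. They went opposite ways, with log2 ratios of -0.37 for miR-126-3p and 2.06 for miR-126-5p, and a median of 0.85. The summed level of these arms was 7084.5 TPM in involution and 7584.4 TPM in lactation. Lists this short cannot be set apart from a share of 41.2%. Of 3 erythroid miRNAs 2 were higher, with a median of 2.21 and summed levels of 3136 TPM in involution and 923 TPM in lactation. Their part in the members' levels was not tested either.

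The reference tags with the closest ratios over the 2 libraries were found among those with at least 1000 tags in both. For miR-146b-5p the nearest of 135 were unnamed here, with log2 ratios of -0.06, -0.06 and -0.05, and among the 21 named ones miR-143 (0.04), miR-21 (0.12) and let-7i (0.13). For miR-155 the nearest were unnamed tags at -0.85, -0.92 and -0.94, and among named ones miR-182 (-0.61), miR-10b (-0.60) and miR-200c (-0.43). A likeness over 2 libraries is a likeness of 1 ratio and says nothing of shared control.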

How the data were processed

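The deposited files hold raw read counts per distinct clean tag. Per the description deposited with the files, low-quality reads, adaptor contaminants, short tags and polyA tags were removed, the 3′ adaptor was trimmed and identical reads were collapsed. It names tags of 18 to 30 nt, whereas the files hold tags of 18 to 44 nt. No aligner or genome build is given in the sources used here.

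Python 3.11.15 was used to match tags to references read from the tags: the most abundant tag of 19 to 25 nt with the 9-base start of each named arm. The conserved miR-146a was set as miR-146b with A18G and C21T over 22 bases. Unnamed references were the leading tags of 20 to 24 nt with at least 10 TPM per 18-base start; they can include fragments of other RNAs. Intervals are exact Poisson (levels) and Clopper-Pearson (shares, ratios), computed with scipy 1.17.1. TMM factors came from edgeR 4.0.16 in R 4.3.3. Every member arm, the 4 most abundant miRNAs of a list and the 3 nearest ratios were to be named. Members and lists were chosen with earlier results of these data known. In Poisson counts simulated at these depths, 95.1% of intervals held the true ratio. The intervals assume such counts, so this checks the computation only. Other scalings, tag rules, filters and depth thinning were tried.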

Additional observations from a re-analysis of the deposited data

How the results depend on the processing

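With 1 library per stage no replicate could be left out. No paired analysis was possible because each stage has 1 pooled library and no test was made. Depth limits most the conserved miR-146a (4 tags in involution, 5 in lactation), miR-146b-3p and the tags that begin 1 base early. Of 144 alternative values for members and counts of calls, 115 stayed within their counting interval (or, for counts, within 1.5 times) and 29 moved; the cause was not tested unless the construction shows it. Scaling to assigned tags gave log2 ratios of -0.0012 for miR-146b-5p and -0.78 for miR-155, and -0.996 for the position-21 variant, which then was not called. With TMM the values were -0.72 for miR-146b-5p, -1.49 for miR-155, -0.12 for miR-146b-3p and -1.71 for the variant, with 142 reference tags called higher and 99 lower in involution. With median-of-ratios factors, which moved every log2 ratio by -0.64, they were -0.70, -1.47, -0.10 and -1.69, with 98 called lower. Without miR-143 in the totals miR-146b-5p stood at -0.035. Counting identical tags gave -0.0042 for miR-146b-5p, -1.25 for miR-155 and -1.28 for the variant, and counting none longer than the mature form gave -1.11 for miR-155. The 3p share of miR-146b was 0.0681% in involution and 0.0477% in lactation for tags from the first base, and 0.0664% in lactation after thinning. With 1 mismatch allowed, longer tags made up 38.8% of miR-155 in involution and 27.0% in lactation (shorter ones 18.7% in lactation), 0.610% of miR-146b-5p in lactation, and 10.4% of the variant in involution and 4.31% in lactation, and the conserved miR-146a made up 0.0526% of miR-146 tags in involution and 0.0272% in lactation. No member's log2 ratio changed sign in these settings apart from that of miR-146b-3p, whose interval spanned equality where it did. The position-21 variant was added after seeing the data. Of 78 list medians (log2), 54 stayed within the medians of their members' counting bounds and 24 moved. Scaling to assigned tags gave 0.52 (stromal), 0.90 (endothelial) and 2.26 (erythroid). TMM gave 0.27 (inflammation), 1.85 (leukocyte), -0.19 (stromal), -0.69 (epithelial), 0.18 (endothelial) and 1.55 (erythroid), and median-of-ratios factors gave 0.29, 1.87, -0.17, -0.68, 0.20 and 1.57 in the same order. Tags from the first base gave 0.77 (endothelial), and identical tags 2.24 (leukocyte), 0.36 (epithelial), 1.08 (endothelial) and 4.67 (erythroid). Tags no longer than the mature form gave -0.075 (epithelial), 0.60 (endothelial) and 2.08 (erythroid), and thinning gave 2.17 (erythroid).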

Other observations

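In the involution library 77 tags placed A in front of the miR-146 sequence, and 72 of them had C at position 21; the lactation library had none, a count that allows up to 0.166 TPM. Tags of 30 nt or longer that held a complete member sequence were few, with 10 in involution and 67 in lactation for miR-146b-5p and 2 in each library for miR-155. Before the last base of the tag and apart from C21T, A11C was the most frequent substitution of miR-146b-5p at tags of 22, 23 and 24 nt. At 24 nt it stood in 0.485% in involution and 0.279% in lactation, as shares counted in the same way as for C21T. Early tags of miR-155 had A in front in 17 tags in involution and 23 in lactation, and C in front in 5 in involution and 23 in lactation.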
